A study of Mus musculus with 3 samples.

Results

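The Hox genes of mouse epididymal fat were read in 3 cell fractions on Agilent microarrays. A gene was a member when the name of a probe outside the control spots was Hox, a cluster letter from a to d and a paralog number, which gave 39 genes with 52 probes, of 37324 genes with 56602 probes in all. There were 11 genes of the A cluster, 10 of the B cluster, 9 of the C cluster and 9 of the D cluster. The fat came from male C57/BL mice aged 20 weeks with no treatment or allele named, and was digested with collagenase. A first spin at 9 g for 1 s left the stromal vascular cells (SVC) in the lower phase. The floating cells were spun again at 226 g for 3 min, which gave the small proliferative adipocytes (SPA) as sediment and the mature adipocytes, here called MWA for mature white adipocytes, on top. SVC and SPA were grown in DMEM to 90% confluence before RNA was taken, and no culture is described for MWA. Each group had 1 array, so no difference below has a replicate check or a test, and precision is limited by this number. How many animals gave the RNA of each array is not stated in the labels. Culture, date and cell fraction cannot be told apart where MWA is compared with the cultured cells.

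Hox genes encode homeodomain transcription factors that give cells their position along the body axis. They lie in 4 clusters, and within a cluster the genes with low paralog numbers are used towards the head and those with high numbers towards the tail, in the same order as they lie on the chromosome. Many adult mesenchymal cells, among them fibroblasts and adipose progenitors, keep a Hox pattern that reflects where in the body they arose, and fat depots differ in it. Hox proteins bind DNA together with cofactors of the Pbx and Meis families, and Polycomb and Trithorax proteins keep the clusters silent or active.

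In the mm9 build that the array annotation uses, the probes of the A cluster described here lay on chromosome 6 from 52112595 to 52209039. Those of the B cluster lay on chromosome 11 from 96057854 to 96228510, those of the C cluster on chromosome 15 from 102759058 to 102867272, and those of the D cluster on chromosome 2 from 74509248 to 74603059. Each probe has 60 bases. In 2 of the 52 probes a search for the codons of the recognition helix of the homeodomain, the helix that touches DNA, found a match. These were a probe of Hoxb3 and the probe of Hoxc11. The second is shown because the homeobox is the part that Hox genes share, with the 15 bases of the match in capitals.
Hoxc11: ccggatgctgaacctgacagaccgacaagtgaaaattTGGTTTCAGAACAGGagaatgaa
The Hoxc11 probe lies on the plus strand of chromosome 15 from 102787015 to 102787074. The accessions of the Hoxb3 probe in the array annotation belong to Hoxb3 and to Hoxd3, so signal at this probe cannot be assigned to 1 of these genes. It was the only one of the 52 probes with accessions of more than 1 reference gene.

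Which Hox genes could be read at all, at the probe taken for each gene, differed with the paralog number. A probe was counted as measured where Agilent Feature Extraction marked its spot as well above background. All 15 genes of the paralog groups 4 to 8 were measured on all 3 arrays. Of the 8 genes of groups 1 to 3, the same 5 were measured on all arrays. Of the 16 genes of groups 9 to 13, 9 were measured in SVC, 8 in SPA and 3 in MWA. Of all spots that are not controls, 58.6%, 61.4% and 61.3% were well above background in SVC, SPA and MWA. The counts of groups 1 to 3, and those of groups 9 to 13 in SVC and SPA, lie near these shares. In the D cluster only Hoxd4, Hoxd8 and Hoxd9 were measured, on every array, while the A cluster had 10 of its 11 genes measured in SVC, the B cluster 8 of 10 and the C cluster 8 of 9. The 10 genes measured on no array were Hoxa13, Hoxb1, Hoxb13, Hoxc12, Hoxd1, Hoxd3, Hoxd10, Hoxd11, Hoxd12 and Hoxd13. These include 3 of the 4 genes of paralog group 13, the group used at the tail end of the body and in the genital tract, whereas the fourth, Hoxc13, was measured in SVC and SPA. Each of the 10 genes measured on no array has 1 probe, so a silent gene and a failing probe cannot be told apart. Among the measured genes, Hoxa9, Hoxb2, Hoxb8, Hoxb9 and Hoxc13 each had another probe that was well above background on no array. In whole fractions, fewer cells that express a gene and less RNA per cell cannot be told apart.

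Levels are given as the log2 of the processed signal over the 75th percentile of the signals of the array, so that 0 is the signal at that percentile. They were compared between arrays at the same probe and not between probes. Hoxc6, a gene of thoracic position, was among the genes with levels above 0 on each array, at 2.34, 2.12 and 1.96 in SVC, SPA and MWA. Hoxa7 was at 1.72, 1.71 and 1.96 and thus nearly level over the fractions. The error that Feature Extraction gives for a spot came to 0.21 on a log2 ratio of Hox genes as a median, which covers the spot and not the animals or cultures. The other genes above 0 on all 3 arrays were Hoxb4, Hoxb7, Hoxc4, Hoxc8, Hoxc9 and Hoxd8. Hoxc11, at -4.77, was just above the lowest level at which a probe in SVC was well above background, which was -4.95.

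**Figure D1:**
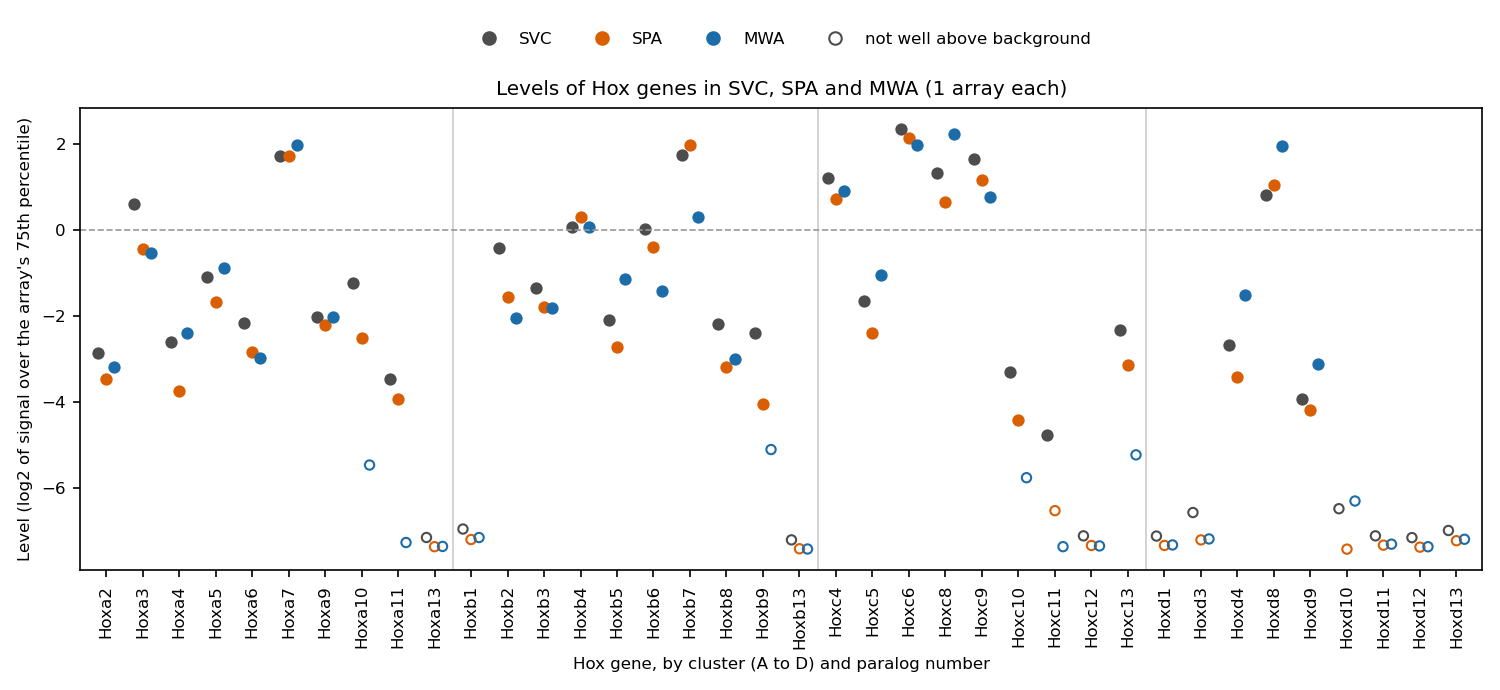
Level of the Hox genes named here (vertical axis, log2 of the signal over the 75th percentile of its array) in SVC, SPA and MWA, 1 array each, ordered by cluster and paralog number. Filled points were well above background and open points were not. The genes of groups 4 to 8 are filled on every array, whereas Hoxa10, Hoxa11, Hoxb9, Hoxc10 and Hoxc13 are filled in SVC and SPA and open in MWA.

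The comparison of SPA with SVC set 2 cultured fractions of the same depot side by side. Most Hox genes were lower in SPA, by a small amount. Of 28 genes measured on both arrays, 24 were lower in SPA and 4 were higher, where 44% of all genes were lower and 56% higher. The median log2 ratio of the Hox genes was -0.59, with a range from -1.63 to 0.24, and the median of all genes was 0.05 with quartiles at -0.17 and 0.28. Of the 28 genes, 23 lay below the lower of these quartiles and 0 above the upper. Genes above 0 included Hoxb4 at 0.24, Hoxb7 at 0.23 and Hoxd8 at 0.21, all about as small as the spot error.

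At 2-fold, 7 of 29 Hox genes were lower in SPA, against 3.24% of all genes, and 0 were higher, against 3.89%. At the 5-fold limit of the study 0 Hox genes passed in either direction, against 0.351% of all genes lower and 0.32% higher. The 7 genes came from the head end, the middle and the tail end of the clusters. Hoxb9 went from -2.41 in SVC to -4.04 in SPA, at 3.09-fold the largest decrease among the probes taken for each gene. Hoxa10, a gene of the lumbar region and the reproductive tract, went from -1.23 to -2.53, which is 2.46-fold. At its second probe it was at least 4.43-fold lower, and with the median over its probes its log2 ratio was -1.72. Hoxc10, which is used at the lumbar level, went from -3.31 to -4.43. These 3 genes belong to groups 9 and 10. Of the anterior genes, which act in the hindbrain and neck, Hoxb2 went from -0.43 to -1.57 and Hoxa3 from 0.60 to -0.44. The remaining 2 were Hoxa4, from -2.61 to -3.74, and Hoxb8, from -2.18 to -3.20. All these ratios exceed the spot error several times.

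The lower levels in SPA were not tied to 1 cluster or to 1 end of the clusters. The median log2 ratio was -0.59 in the A cluster, -0.54 in the B cluster, -0.68 in the C cluster and -0.26 in the D cluster, which has only 3 measured genes. By position it was -0.60 in groups 1 to 3, -0.59 in groups 4 to 8 and -0.65 in groups 9 to 13. Of all genes, 44% were lower in SPA. In groups 1 to 3, 4 of 5 Hox genes were lower, and in groups 4 to 8, 12 of 15 were. In groups 9 to 13, 8 of 8 were. By cluster, 9 of 10 were lower in A, 6 of 8 in B, 7 of 7 in C and 2 of 3 in D. The difference did vary with the signal. The 8 genes with a mean level above 0 had a median of -0.11 and the 20 genes below 0 had one of -0.70, whereas all genes had 0.05 in both classes.

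**Figure D2:**
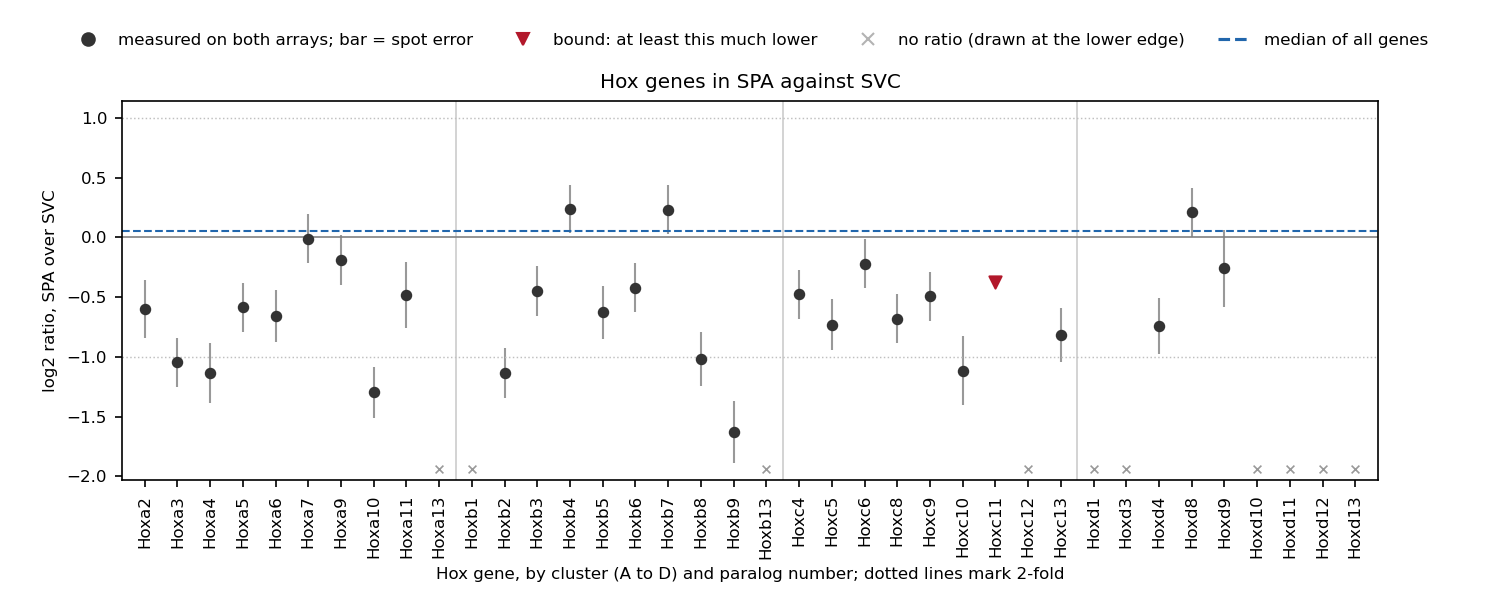
Log2 ratio of SPA over SVC (vertical axis) for the Hox genes named here, ordered by cluster and paralog number. Bars are the spot error of Feature Extraction and not a replicate error, the triangle is a bound, crosses at the lower edge are genes without a ratio, and the dashed line is the median of all genes at 0.05. Points lie below that line in every cluster, and 3 points lie above 0.

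With the normexp background correction, run with an offset of 50, 0 Hox genes were lower at 2-fold, against 1.42% of all genes, and 0 were higher, against 1.53%. The median was then -0.37, where that of all genes was 0.04. Of the 28 genes, 25 were lower in that setting, for which the share of all genes lower was not counted.

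Cell type markers also differed between these arrays. Of all genes, 3.24% were lower in SPA and 3.89% higher at 2-fold, and 0.351% were lower and 0.32% higher at 5-fold. Of 7 mesothelial markers, 7 were lower in SPA at 2-fold, with a median log2 ratio of -2.56, and their summed level went from 65.2 times the 75th percentile in SVC to 14.3 in SPA. Of 8 fibroblast and progenitor markers, 4 were lower at 2-fold with a median of -0.97, and the summed level went from 262 to 140. The 7 smooth muscle and pericyte markers went from 356 to 150 in sum, with 2 of them lower and 1 higher at 2-fold and a median of -0.28. Adipocyte markers moved the other way, with 7 of 8 higher in SPA and sums of 43.1 and 146, and Adipoq, Plin1 and Pck1 were not well above background in SVC. The sums of 10 macrophage markers were 565 and 609, while 3 of them were lower in SPA at 5-fold and 0 were higher. The 7 endothelial markers had 2 members higher at 2-fold and a median of 0.30. The sums of 7 lymphocyte markers were 3.57 and 3.85. Those of 6 Schwann cell markers were 3.25 and 3.03, although 2 of the 5 measured ones were higher in SPA and the median was 0.47. Epididymal epithelium, which lies beside this fat and expresses Hox genes of its own, had 1 of 7 markers above background on both arrays, with Lcn5, Lcn8, Lcn9, Crisp1, Adam7 and Spink11 below it. The part of these cells in the Hox differences was not tested.

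The comparison of MWA with SPA set mature adipocytes beside cultured cells. Hox genes moved in both directions. All 4 genes of groups 10 to 13 that SPA measured dropped out of the measured range in MWA. On measured values, 10 of 15 genes of groups 4 to 8 and 2 of 3 of groups 9 to 13 were higher, and 4 of 5 of groups 1 to 3 were lower. Of 23 genes measured on both arrays 13 were higher in MWA, against 46.2% of all genes, and 10 were lower, against 53.8%. Their median log2 ratio was 0.18 and that of all genes was -0.08.

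Of the 28 Hox genes measured in SVC and SPA, 5 were not well above background in MWA, against 4.09% of all genes. All of the 4 such genes in groups 10 to 13 were among the 5, and 0 of 20 in groups 1 to 8 were. Hoxa10 was at -1.23 in SVC and -2.53 in SPA, and its spot read -5.46 in MWA, where -5.15 was the lowest level of a probe well above background. In MWA it was thus lower than in SPA by at least 6.16-fold and than in SVC by at least 15.1-fold. Hoxc13, known for its part in hair and nail, was at -2.33, -3.15 and -5.23, with a log2 ratio to SPA of -2.00 or below and a level at least 7.04-fold under that of SVC. Hoxb9 was at -2.41, -4.04 and -5.10, which is at least 2.09-fold and at least 6.48-fold lower. Hoxa11, which acts in limb, kidney and uterus, was at -3.46, -3.94 and -7.26, or at least 2.32-fold and at least 3.23-fold lower. For Hoxc10 the levels were -3.31, -4.43 and -5.76, with bounds of 1.65-fold and 3.58-fold. In each of these 5 genes SVC read higher than SPA, as it did in 24 of the 28. That MWA read lowest follows from how the 5 were picked, so this order is no separate result. Hoxc11 was measured in SVC alone, and its bound against MWA was 1.30-fold. The second probe of Hoxa10 was at -2.99 in SVC and not well above background in SPA or MWA.

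At 2-fold, 6 of 28 Hox genes were lower in MWA than in SPA, against 18% of all genes, and 6 were higher, against 15.7%. Both shares lie near those of all genes. At 5-fold 1 was lower, Hoxa10, against 3.97%, and 0 were higher, against 5.47%. The genes that were lower on measured values were Hoxb7, from 1.96 in SPA to 0.30 in MWA, and Hoxb6, from -0.41 to -1.43. These neighbours in the trunk region of the B cluster had log2 ratios of -1.65 and -1.02. The 4 others were the bounds of Hoxa10, Hoxa11, Hoxb9 and Hoxc13.

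The 6 genes that were higher in MWA lay in groups 4, 5, 8 and 9. Hoxd4 went from -3.43 in SPA to -1.52 in MWA, the largest increase of a Hox gene at 3.76-fold. Hoxc8, a gene of the thoracic and forelimb level, went from 0.64 to 2.22, which is 3.00-fold. Hoxb5 went from -2.72 to -1.15, or 2.98-fold, and its paralog Hoxc5 from -2.40 to -1.05, or 2.54-fold. Hoxa4, in group 4 like Hoxd4, went from -3.74 to -2.41, or 2.52-fold. Hoxd9 went from -4.18 to -3.13, or 2.07-fold. Paralogs did not all move alike. In group 4, Hoxb4 and Hoxc4 had log2 ratios of -0.25 and 0.17, and in group 8, Hoxb8 had one of 0.21.

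By cluster, all 3 measured genes of the D cluster were higher in MWA, with a median log2 ratio of 1.05. The B cluster had 5 of 7 genes lower and a median of -0.25, the A cluster 5 of 8 higher and a median of 0.22, and the C cluster 3 of 5 higher and a median of 0.17. Of all genes, 46.2% were higher and 53.8% lower. Each cluster thus held both directions except D, where few genes could be read.

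When MWA was compared with SVC, 2 of 29 Hox genes were higher by 2-fold or more, where 17.2% of all genes were, and 9 were lower, where 18% of all genes were. At 5-fold 0 were higher, against 5.72%, and 3 were lower, against 3.96%. These were Hoxa10, Hoxb9 and Hoxc13, all of them bounds. The 2 higher genes were Hoxd4 at 2.25-fold and Hoxd8 at 2.18-fold. Hoxd8 read 0.81, 1.03 and 1.93 on the arrays of SVC, SPA and MWA. The anterior groups 1 to 3 were lower in MWA in 5 of 5 genes, with a median log2 ratio of -0.90, against 52.9% of all genes lower at any size. For Hoxb3 this holds only at its probe shared with Hoxd3, at -0.48, and its other 2 probes were higher, at 1.11 and 0.28. Hoxb2 and Hoxa3 led this group at -1.63 and -1.15. Over the 23 genes measured on both arrays, 14 were lower and 9 were higher, against 47.1% of all genes higher, and the median was -0.31, where that of all genes was -0.07.

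Over the 23 genes measured on every array, 8 had their lowest level in SPA and their highest in MWA. These were Hoxa4, Hoxa5, Hoxa7, Hoxb5, Hoxc5, Hoxc8, Hoxd4 and Hoxd9. Another 7 stepped down from SVC to SPA to MWA, which were Hoxa3, Hoxa6, Hoxb2, Hoxb3, Hoxb6, Hoxc6 and Hoxc9. Hoxa2, Hoxa9, Hoxb8 and Hoxc4 were lowest in SPA and highest in SVC, and Hoxb4 and Hoxb7 were among those highest in SPA and lowest in MWA. Hoxd8 stepped up from SVC to SPA to MWA. These orders are those of the probe taken for each gene, and other probes of Hoxa3, Hoxa9, Hoxb3 and Hoxd8 gave other orders. At those probes Hoxa3 was not well above background in SPA and Hoxa9 was not in MWA. Neighbours in these orders often differed by less than the spot error, as Hoxa7 in SVC and SPA, Hoxa9 in SVC and MWA, and Hoxb3 in SPA and MWA. The shares of all genes with each order are not given, so these counts are a description and show no trait of Hox genes.

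**Figure D3:**
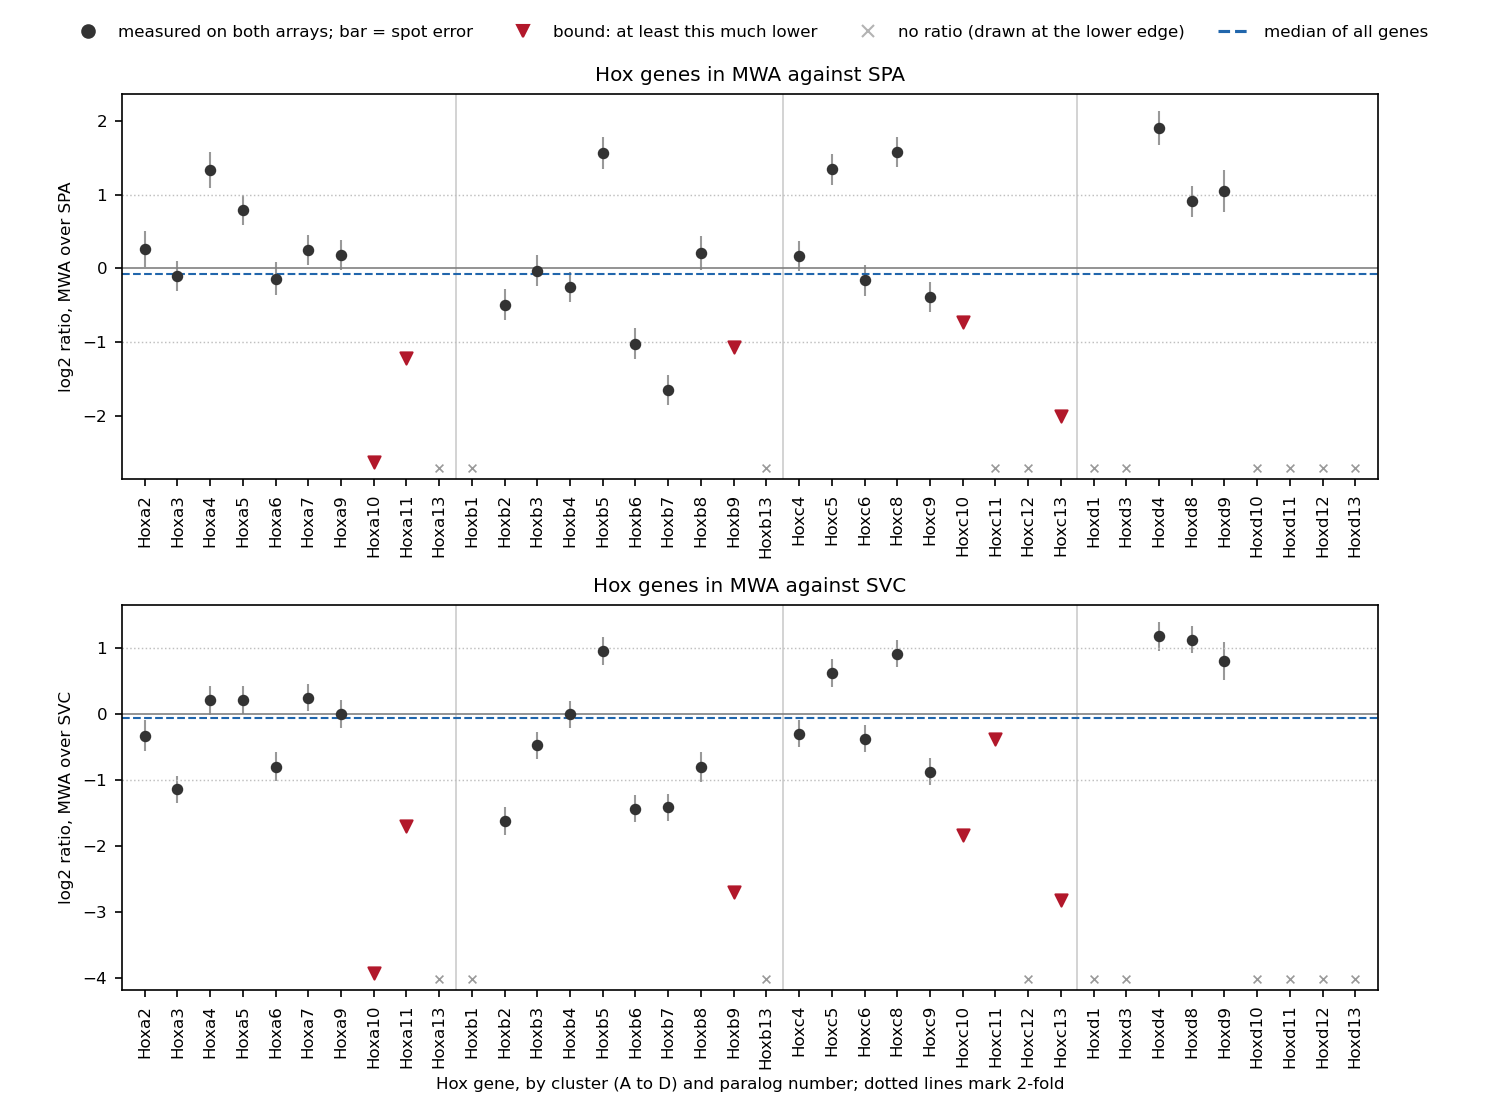
Log2 ratio of MWA over SPA (upper panel) and MWA over SVC (lower panel) for the Hox genes named here, ordered by cluster and paralog number. Bars are the spot error and not a replicate error, triangles are bounds, crosses at the lower edge are genes without a ratio, and the dashed line is the median of all genes. The triangles lie in groups 9 to 13, and the 3 points of the D cluster lie above 0 in both panels.

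With the normexp correction, Hoxb7 was the 1 gene lower in MWA over SPA at 2-fold, against 11.4% of all genes, and Hoxc8 and Hoxd4 were the 2 higher, against 10.2%. In MWA over SVC it left 4 genes lower, against 12.3%, and 1 higher, against 11.1%. Hoxa10 then had a log2 ratio of -0.81 in MWA over SPA and of -1.62 in MWA over SVC. The 3 genes of the D cluster were also higher in MWA than in SPA in that setting, with 0.84 for Hoxd8 and 0.48 for Hoxd9.

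MWA also differed from the cultured cells in other cell types. In MWA over SPA, 15.7% of all genes were higher and 18% lower at 2-fold, and 5.47% were higher and 3.97% lower at 5-fold. All 7 endothelial markers were past 5-fold, higher in MWA over SPA, and summed to 2.37, 2.86 and 78.2 in SVC, SPA and MWA. Erythrocyte markers summed to 0.19 in SVC and SPA and to 343 in MWA, with Hbb-b1 and Alas2 above background in MWA alone. Adipocyte markers reached a sum of 2745 in MWA, with 8 of 8 higher at 2-fold. The smooth muscle and pericyte markers summed to 41.2 in MWA, and from SPA 3 were higher and 3 lower at 2-fold, with a median of 0.63. The fibroblast and progenitor markers summed to 398, with 5 of 8 higher and 1 lower and a median of 2.06. The mesothelial markers summed to 23.5, with 4 of 7 higher at 5-fold and a median of 2.65, and 1 lower at 2-fold. The macrophage markers summed to 220, with 3 of 10 higher and 1 lower at 5-fold and a median of -0.30. Lymphocyte markers summed to 4.96 with 6 of 7 above background, Schwann cell markers to 5.25, and the epithelial markers to 0.46 with 2 of 7 above background. The part of these cells in the Hox differences was not tested.

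Promoters of Hoxa10, the only Hox gene whose bound passed 5-fold from SPA to MWA, and of Hoxd4, which had the largest increase at the probes used, are shown for reference. Bounds give no order among the genes that dropped out, and without the filter on dim probes Hoxa11 was lower by more than Hoxa10, at -3.33 and -2.94 on the log2 scale. Both windows come from RefSeq on GRCm38.p6 and hold the 250 bases before the transcript start, 5′ to 3′ on the strand of the gene. RefSeq windows were found for 22 of the 39 Hox genes, 24 windows in all. The capitals mark TATAAA for the TATA box, TGACAG for a Meis site and TGATTNAT for a joint Pbx and Hox site, searched on both strands. Each window shown holds 1 match, so no motif overlaps another. The Hoxa10 window lies at chr6:52234940-52235189 on the minus strand and the Hoxd4 window at chr2:74721728-74721977 on the plus strand.
Hoxa10: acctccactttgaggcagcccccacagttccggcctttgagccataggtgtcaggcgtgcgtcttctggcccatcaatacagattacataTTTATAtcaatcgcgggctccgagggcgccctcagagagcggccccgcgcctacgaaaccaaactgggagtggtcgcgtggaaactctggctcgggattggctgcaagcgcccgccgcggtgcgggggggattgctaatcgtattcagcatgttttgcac
Hoxd4: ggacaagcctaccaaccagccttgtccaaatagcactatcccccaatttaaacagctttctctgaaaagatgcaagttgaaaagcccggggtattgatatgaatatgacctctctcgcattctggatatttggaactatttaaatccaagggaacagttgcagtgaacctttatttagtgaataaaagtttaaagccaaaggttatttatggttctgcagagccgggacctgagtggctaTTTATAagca
Both windows held the TATA letters, read on the opposite strand, and neither held the letters TGACAG or TGATTNAT. TATAAA was in 4 of the 24 Hox windows and in 12.4% of 32851 windows of all genes, TGACAG in 2 and in 15.9%, and TGATTNAT in 2 and in 2.82%. Hoxa10 has 20 CG pairs in the window and Hoxd4 has 3, where the median was 12.5 over the Hox windows and 6 over all windows. A second RefSeq start of Hoxa10 had a window with 7 CG pairs and none of these letters.

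Several Hox genes had more than 1 probe, and the probes did not always give the same answer. Of 10 such genes, 6 had ratios of SPA over SVC at more than 1 probe, and in 2 of these the probes had opposite signs. In MWA over SPA 3 of 5 genes had opposite signs, and in MWA over SVC 1 of 6 did and 4 of 6 lay on both sides of 2-fold. Hoxb3 had opposite signs in all comparisons. Its homeobox probe, shared with Hoxd3, had a log2 ratio of -0.45 in SPA over SVC, while the other 2 probes had 0.43 and 0.15. From SPA to MWA the 3 probes had -0.03, 0.69 and 0.14, so the direction of Hoxb3 depends on the probe. Hoxd8 had 0.21 and -0.21 in SPA over SVC, and 0.91 and 0.94 in MWA over SPA, where both probes moved alike. In MWA over SVC it had 1.12 and 0.73, so its place among the genes past 2-fold rests on the probe taken. For Hoxa9 the probe used here spans a splice junction and had 0.18 in MWA over SPA, whereas another probe was at -3.07 in SVC and -3.95 in SPA and not well above background in MWA, which is at least 2.14-fold lower than in SPA. Hoxc6 had -0.16 at both probes in MWA over SPA. Outlying local background was flagged by Feature Extraction for Hoxa2 on all arrays, for Hoxa5 in MWA and for Hoxd13 in SVC and SPA.

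Other transcripts of the clusters, most of them noncoding and antisense, were read beside the coding genes. Of 12 on the arrays, 10 could be compared between SPA and SVC. Of these 0 were past 2-fold, where 3.89% of all genes were higher and 3.24% lower. In MWA over SPA 2 of 11 were higher at 2-fold and 1 was lower, against 15.7% and 18% of all genes. Hoxd3os1, a transcript antisense to Hoxd3, read -4.09, -5.02 and -2.47 on the arrays of SVC, SPA and MWA, a log2 ratio of 2.55 from SPA to MWA. Its level in SPA was just above -5.14, the lowest level of a probe well above background there. Hoxd3 itself was measured on no array. Halr1, from the head end of the A cluster, was above background in MWA alone, at -3.95, and at least 2.27-fold higher than in SPA. Hoxa11os, the antisense transcript of Hoxa11, was at -1.51, -1.74 and -2.99, which made it lower in MWA together with Hoxa11. Hottip, from the tail end of the A cluster, stayed between -3.37 and -3.29. HOTAIR, a noncoding RNA of the C cluster, was above background on no array. The median log2 ratio of the measured transcripts was -0.06 in SPA over SVC and 0.30 in MWA over SPA.

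Among 10 genes listed as Hox cofactors, Gmnn included, 0 were past 2-fold in SPA over SVC, where 3.24% of all genes were lower and 3.89% higher. In MWA over SPA 5 were lower at 2-fold and 0 higher, where 18% of all genes were lower and 15.7% higher. Gmnn, which encodes a replication inhibitor that also binds Hox proteins, read 2.89, 2.63 and -0.13 on the arrays of SVC, SPA and MWA. It was the only gene of the list past 5-fold in MWA over SPA, where 3.97% of all genes were lower. Pknox2 was at 0.46, -0.31 and -2.24 and past 5-fold with Gmnn in MWA over SVC, where 3.96% of all genes were lower. Meis1 was at 2.02, 2.15 and 0.47. Pbx3 had a log2 ratio of -1.49 from SPA to MWA and Meis2 one of -1.33. The median of the 9 cofactors measured on both arrays was -0.17 in SPA over SVC and -1.33 in MWA over SPA.

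Of 45 other transcription factors with a known place in the body plan, 30 could be compared between SPA and SVC. At 2-fold 8 of the 30 were lower in SPA, where 3.24% of all genes were, and 2 were higher, where 3.89% were. At 5-fold 0 passed, against 0.351% of all genes lower and 0.32% higher. Hand2, a factor of lateral mesoderm, was at -2.25 in SVC and -4.39 in SPA, the largest decrease of the list, and Tbx2 at -3.44 and -2.31, the largest increase. In MWA over SPA, 5 of 31 were higher at 5-fold, where 5.47% of all genes were. These were Meox1 and Tbx5, both of them bounds at 4.96 and 3.21 on the log2 scale, and Meox2, Irx3 and Osr2 at 3.89, 2.63 and 2.61. Emx2, a factor of the urogenital tract, was the 1 gene lower at 5-fold, where 3.97% of all genes were, at 1.08, -0.57 and -3.27 from SVC over SPA to MWA. In MWA over SVC 33 could be compared, and 5.72% of all genes were higher and 3.96% lower at 5-fold. The 5 genes lower were Emx2, Prrx2, Prrx1 and, as bounds, Hand2 and Gata4, with log2 ratios from -4.35 to -2.53, and the 5 genes higher were the same 5 as in MWA over SPA, from 2.62 to 4.19. Wt1, which marks visceral fat and its mesothelium, was at 2.75, 1.85 and 1.70. Tbx15, which marks subcutaneous fat, was above background on no array.

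**Figure D4:**
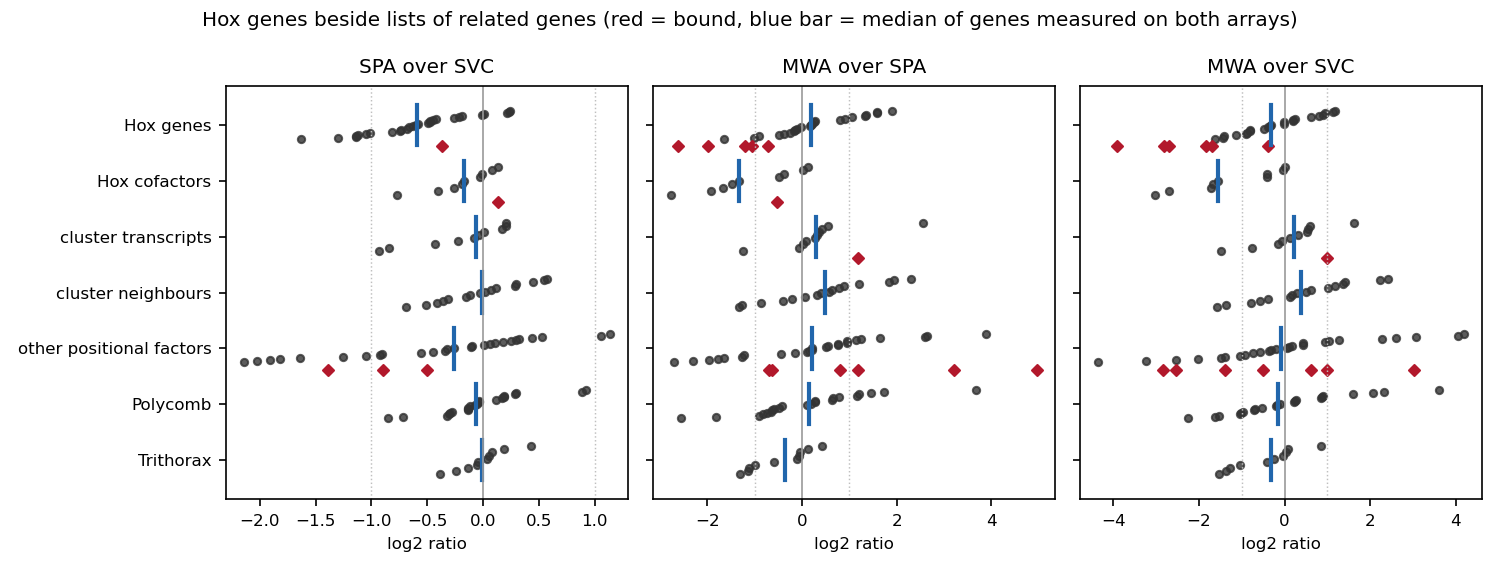
Log2 ratios (horizontal axis) of the Hox genes and 6 lists of related genes in the 3 comparisons. Points are genes measured on both arrays, red diamonds are bounds, blue bars are medians and dotted lines mark 2-fold. The median of the Hox genes lies at -0.59 in SPA over SVC, and the cofactors have a median of -1.33 in MWA over SPA.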

How the data were processed

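RNA of SVC, SPA and MWA was labelled with Cy3 from 50 ng and hybridized to 1 Agilent SurePrint G3 mouse array each, 3 arrays on 1 slide. Per the file headers, the authors deposited the intensity of each spot from Agilent Feature Extraction 10.7.3.1, background-subtracted and detrended within the array, with the raw signal and local background. They also deposited, per spot, a ratio of that signal to 1 constant per array, used as an alternative. Positions are in mm9. Samples were grouped by their source names. Each array was scaled to its 75th percentile over 59305 spots that are not controls, 430, 439 and 366 in SVC, SPA and MWA. Of the spots, 58.6% to 61.4% were well above background and 0 were saturated. Spots of a probe were averaged, and of the probes of a gene the one with the highest mean over the arrays was taken. A value not well above background was replaced by the lowest signal well above background on that array, or by its own if higher, and the ratio is then a bound, written "at least". Folds of 2 and of 5, the limit of the study, were counted, and the counts of all genes are over those measured on at least 1 array, or on both where a direction of any size is counted. No test was run.

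The Hox genes and the 16 gene lists were chosen with earlier results of these data known, and are no independent support. Every Hox gene was to be named, although a few items are not reported here by name or sequence, and of the other lists those past 5-fold or the most changed, with Wt1 and Tbx15. Pknox2, Meis1, Meis2, Pbx3 and the cluster transcripts were named after their values were seen. Symbols were taken from the arrays, and 46 of 52 Hox probes had an accession in the RefSeq table of GRCm38.p6, which changed the name of 0. The scripts were checked on simulated arrays with known changes of 8-fold, called at 5-fold. All 100 raised genes were called in each comparison. Of 100 lowered genes, 77 were called in SPA over SVC, 73 in MWA over SPA and 81 in MWA over SVC, so decreases can be missed. Python 3.11.15, pandas 2.3.3, R 4.3.3 and limma 3.58.1 were used.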

Additional observations from a re-analysis of the deposited data

How the results depend on the processing

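Each setting was changed alone, in 9 alternatives. No Hox gene past 2-fold turned its direction where single genes were recomputed, which was in all alternatives but those that kept only values measured on both arrays or chose the probe by its ratio. With normexp (offset 50), the genes lower at 2-fold in SPA over SVC numbered 0 and the median was -0.37. In MWA over SPA it gave 0 lower at 5-fold, 2 higher and 1 lower at 2-fold, and in MWA over SVC 0 lower at 5-fold, 1 higher and 4 lower at 2-fold. Without the filter on dim probes, the genes lower at 5-fold were 2 in MWA over SPA and 6 in MWA over SVC. Where both arrays had to be well above background, there were 0 lower at 5-fold in either comparison, and 2 and 4 lower at 2-fold. Shares of all genes were counted in the setting used above and, at 2-fold, with normexp. The other counts given here have no such share to be set against. With the median over the probes of each gene, 1 gene was higher at 2-fold in MWA over SVC, and the median was -0.0090. Of all counts and medians in the alternatives, 119 of 135 values stayed within 1.5 times the count or within the spot error. The scaling settings moved the median of all genes by at most 0.08. The cause of these changes was not tested, other than that the settings on dim probes drop or add bounds. Depth cannot be given for arrays. Dim genes have raw signals close to the local background, with a median of 4.16 times it for Hox genes in SVC, 2.64 in SPA and 2.87 in MWA. No paired analysis was possible because each group has 1 array.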

Other observations

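The genes beside the Hox clusters and the Polycomb and Trithorax genes were read in the same way. Of 16 measured genes beside the clusters, 0 were past 2-fold in SPA over SVC, where 3.24% of all genes were lower and 3.89% higher. In MWA over SPA 4 were higher and 2 were lower, where 15.7% of all genes were higher and 18% lower. Jazf1, which lies beyond the A cluster on chromosome 6, read -2.24, -2.13 and 0.18 on the arrays of SVC, SPA and MWA and was the only one past 5-fold, in MWA over SVC. It also had the largest increase from SPA to MWA, and Skap2 had the largest decrease, at -1.33. From SVC to SPA, Ttll6 at -0.69 and Calcoco1 at 0.58 changed most. Of 22 Polycomb subunits and H3K27 demethylases, 0 were past 2-fold in SPA over SVC, where 3.24% of all genes were lower and 3.89% higher. In MWA over SPA 5 were higher and 2 were lower, against 15.7% and 18% of all genes. Kdm6b, a demethylase that removes the Polycomb mark, was at -0.42, -0.48 and 3.20, and Cbx2, a subunit of Polycomb complex PRC1, was at -1.28, -0.99 and -3.55. In MWA over SVC the genes past 5-fold were Kdm6b at 3.62 and Cbx7 at 2.33 on the log2 scale. Of 10 Trithorax subunits, 0 were past 5-fold in any comparison, where 0.32% to 5.72% of all genes were in each direction. At 2-fold 3 were lower in MWA over SPA, where 18% of all genes were. Rbbp5 had the largest decrease of them, from -0.69 in SPA to -2.01 in MWA.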
